A study of Homo sapiens with 6 samples.

Results

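The miRNAs described here are 46 mature miRNAs of the imprinted DLK1-DIO3 domain on the long arm of chromosome 14, chosen by name from a fixed list. No measured value entered the rule, but the list was drawn up with earlier results of these data known. Of these, 34, such as hsa-miR-127-3p, hsa-miR-411-5p and hsa-miR-409-3p (written below without the prefix hsa-), have a row in a table of 1582 miRNAs that were counted by small RNA sequencing in MDA-MB-231 cells, a human triple-negative breast cancer (TNBC) line. The control group consisted of 3 libraries of non-transfected (blank) MDA-MB-231 cells. The other group consisted of 3 libraries of MDA-MB-231 cells transfected with RARαS77A, the retinoic acid receptor α in which the serine that gives the mutant its name is replaced by alanine. The series describes the construct as lentiviral, and the control cells received no vector, so the delivery of the construct and the mutant receptor cannot be told apart. Neither the labels nor the methods say if replicates came from separate cultures or if the RARαS77A cells were a clone or a pool, so p-values measure only the spread between these libraries.

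In the DLK1-DIO3 domain, the protein-coding genes DLK1, RTL1 and DIO3 are expressed from the paternal chromosome, whereas the long noncoding RNAs MEG3, MEG8 and MEG9 and the miRNAs of the domain are expressed from the maternal chromosome. The miRNAs are cut from long noncoding transcripts and lie in tandem arrays, one of which runs antisense to RTL1, whose transcript its miRNAs can cleave. They are known from embryonic tissue, placenta, brain and pluripotent stem cells. A mature miRNA recognises its targets mainly through its seed, bases 2 to 8 from the 5′ end. The question addressed is how much of this cluster was present in each library and whether it differed between RARαS77A and control cells.

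The 46 miRNAs come from 41 precursors, all on the plus strand, between chr14:100869060-101066801 (GRCh38, GENCODE 29), a span of 197742 bases. The domain begins with DLK1 at chr14:100725705-100738224 and MEG3 at chr14:100779410-100861031 and ends with DIO3 at chr14:101561351-101563452. The first array, from MIR493 to MIR136 (chr14:100869060-100884783), holds 8 precursors and 10 of the 46 miRNAs, and MIR431, MIR433, MIR127, MIR432 and MIR136 in it overlap an exon of RTL1 on the opposite strand. MIR370 (chr14:100911139-100911213) stands alone within MEG8. The second array, from MIR379 to MIR656 (chr14:101022066-101066801), accounts for the other 35 miRNAs. Its first precursors, MIR379 to MIR495, lie within MEG8, those from MIR381 to MIR655 within MIR381HG, and those from MIR409 to MIR656 within MEG9.

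Of all 46, 6 miRNAs reached at least 10 counts in any library, and the results below turn on these. Their mature sequences, from RefSeq on GRCh38.p14, are shown in genomic order with the seed in capitals, together with miR-381-3p, which was added after its values were seen because it was counted in every library.
miR-127-3p: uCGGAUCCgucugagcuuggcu
miR-136-3p: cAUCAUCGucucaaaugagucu
miR-379-5p: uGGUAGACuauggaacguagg
miR-411-5p: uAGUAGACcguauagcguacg
miR-758-3p: uUUGUGACcugguccacuaacc
miR-381-3p: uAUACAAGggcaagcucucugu
miR-409-3p: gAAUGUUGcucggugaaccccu

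All 46 names matched RefSeq, and the 46 miRNAs have 45 different seeds. The only seed held by more than 1 of them, UCAUAGA, belongs to miR-376a-3p and miR-376b-3p. A further 10 of the seeds also occur in miRNAs outside the list, such as GGUAGAC of miR-379-5p in miR-3529-5p, which had 3 counts over the 6 libraries, and ACACACC of miR-329-3p in miR-362-3p, which had 11. Thus the miRNAs with the most counts, miR-411-5p and miR-127-3p, do not share a seed with each other or with any other human miRNA of the RefSeq table used. Neither had a row with near-identical counts elsewhere in the table.

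The libraries held 9019266 to 11338580 counts, and mean TMM scaling factors were 1.22 ± 0.0720 in control and 0.820 ± 0.00942 in RARαS77A ones (n = 3 each, ± SD). Levels are given below either as counts, as CPM (counts in a library scaled to 1000000 counts in total), or as TMM CPM, for which the total is first multiplied by the TMM factor. The miRNAs listed here as high in MDA-MB-231 cells took 617748 to 711040 CPM and the epithelial miR-200 family with miR-205-5p took 89.7 to 127.6. Of those listed as high, miR-31-5p had 4 to 11 counts and miR-10b-5p was at 3.81 to 19.4 TMM CPM. The list thus did not hold for these miRNAs, and it was not checked against other data of the line. The sum of that list was carried by miR-21-5p and miR-100-5p, which made up 94.6% to 97.5% of it. Control replicates 1 and 2 stood apart from the other 4 libraries and from each other. Their counts of 9 miRNAs of pluripotent stem cells (the miR-302 and miR-371 families) summed to 2 and 1, against 3594 to 4849 in control replicate 3 and the RARαS77A libraries. The labels give the same cell line for all 6 libraries and do not say whether they came from 1 stock of cells, which was not tested. Each control mean below thus averages over libraries that are unlike each other, and values without control replicate 2, or with control replicate 3 as the only control, stand beside the main results.

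The DLK1-DIO3 miRNAs were rare in every library. Summed over the 34 with a row, they had 105, 247 and 28 counts in control replicates 1, 2 and 3, and 30, 28 and 25 in RARαS77A replicates 1, 2 and 3. This corresponds to 0.000972%, 0.00218% and 0.000310% of all counts in control and 0.000309%, 0.000273% and 0.000250% in RARαS77A libraries. Control replicates 1 and 2 were high and the other 4 libraries were low, at 25 to 30 counts. In each library, at least 211 single miRNAs had more counts than all members of the cluster together. The most counted members were miR-411-5p and miR-127-3p, with 97 and 92 counts over the 6 libraries.

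On the CPM scale, the sums were 9.72 (95% Wilson interval 8.03 to 11.8), 21.8 (19.2 to 24.7) and 3.10 (2.15 to 4.49) in control libraries. They were 3.09 (2.17 to 4.42), 2.73 (1.89 to 3.94) and 2.50 (1.69 to 3.69) in RARαS77A libraries. The interval of control replicate 3 overlapped those of all RARαS77A libraries, whereas the intervals of control replicates 1 and 2 overlapped neither each other nor any other library. The intervals cover counting error only. On the TMM CPM scale, the sums were 8.42, 16.8 and 2.56 in control and 3.82, 3.33 and 3.01 in RARαS77A libraries, so that control replicate 3 lay below every RARαS77A library and the groups overlapped. The mean of the 3 control libraries was 9.26 ± 7.15 and that of the 3 RARαS77A libraries 3.39 ± 0.406 TMM CPM (± SD). The difference between the means, -5.87 TMM CPM, is smaller than the SD of the control libraries. The log2 fold change of -1.45 is slightly larger than the SD of the log2 sums of the control libraries, 1.37. Without control replicate 2 the log2 fold change was -0.69, and without control replicate 3 it was -1.95. Against control replicate 3 alone its sign turned, to 0.44 on TMM CPM, whereas on CPM control replicate 3 was 1.12-fold above the RARαS77A mean. No p-value is given for the sum, since the list was drawn up with results of these data known.

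**Figure D1:**
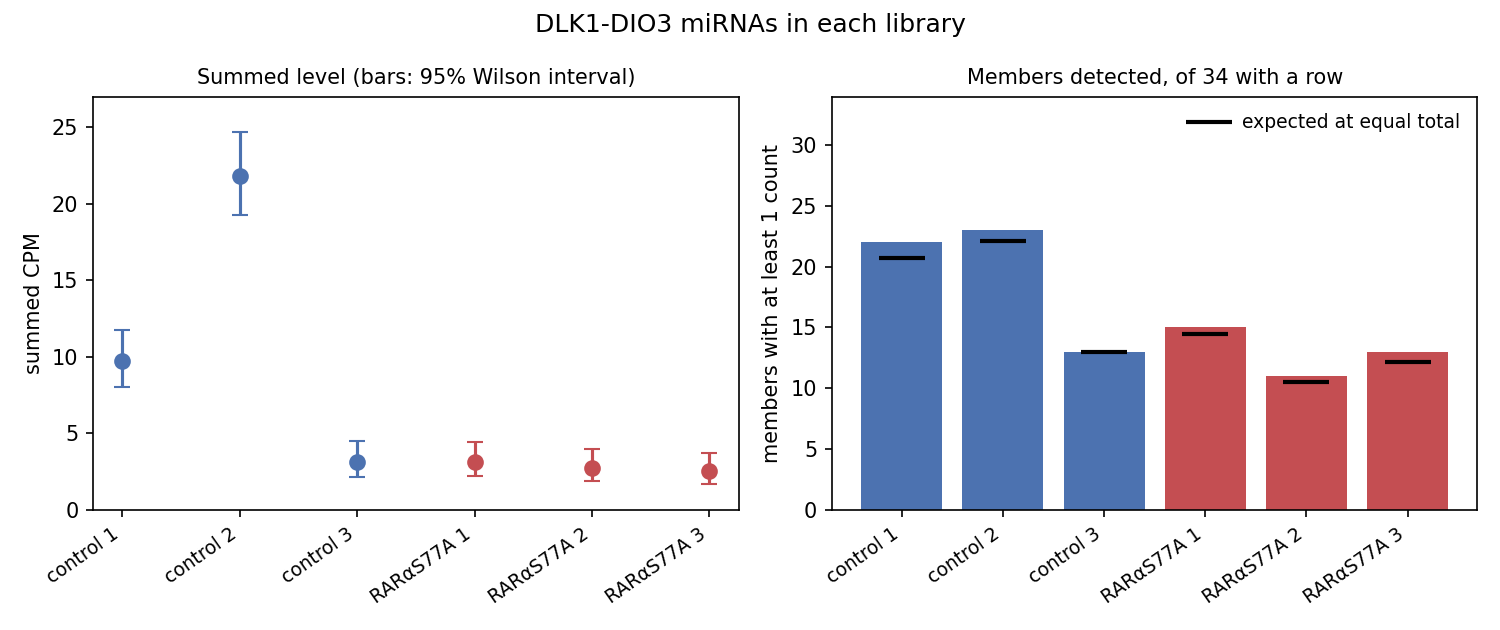
Left, summed CPM of all DLK1-DIO3 members in each library, with 95% Wilson intervals; right, the number of members with at least 1 count (bars) and the number expected if each library were thinned to the smallest total (black lines). Control replicates 1 and 2, at 9.72 and 21.8 CPM with 22 and 23 members, stand above control replicate 3 and the RARαS77A libraries, at 2.50 to 3.10 CPM with 11 to 15 members.

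The number of members with at least 1 count was 22, 23 and 13 in control and 15, 11 and 13 in RARαS77A libraries. Over all 1582 rows, it was 1099, 1164 and 1084 in control and 989, 1037 and 1029 in RARαS77A libraries, which did not overlap. Among the members, control replicate 3 lay within the range of the RARαS77A libraries. The means were 19.3 ± 5.51 and 13.0 ± 2.0 (SD, n = 3 each), and the groups overlapped. Thinning all libraries to the smallest total gave expected numbers of 20.7, 22.1 and 13 in control and 14.5, 10.5 and 12.2 in RARαS77A libraries. Thinning to the smallest product of total and TMM factor, an alternative added after seeing the data, gave 18.8, 19.8 and 10.4 against 15, 10.7 and 12.6, so that control replicate 3 was then the lowest of the 6. On that scale the groups overlapped over all rows as well, with 995 to 1019 expected in control and 989 to 1024 in RARαS77A libraries. At least 3 counts were reached by 12, 14 and 4 members in control and by 4, 4 and 2 in RARαS77A libraries. At least 10 counts were reached by 3 and 5 members in control replicates 1 and 2 and by 0 members in each of the other 4 libraries.

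Only 4 members, miR-127-3p, miR-379-5p, miR-381-3p and miR-411-5p, were counted in all 6 libraries. A further 13 (38.2%, against 17.3% of all rows) were counted only in control libraries, of which 10 only in control replicates 1 or 2. Only in RARαS77A libraries were 2 counted (5.88%, against 9.04% of all rows). These were miR-376a-3p and miR-654-5p, with 1 count each, in RARαS77A replicate 1. Relative to the total of the library, 24 of the 34 members were highest in control replicate 1 or 2. Scaled by total counts, all 506 miRNAs that passed the low-count filter had a median log2 fold change of -0.51, so control libraries read high in general. The share over all rows was not computed for these 24 or for the 10 above, and no conclusion is drawn from either count. Control replicate 2 alone contributed 53.3% of the 463 counts that the cluster had over the 6 libraries. The median total of a member over the 6 libraries was 4.5 counts, against 12 over all 1582 rows, and 6 members had 1 count in total.

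With edgeR's quasi-likelihood test and its low-count filter, 506 miRNAs were tested, 118 (23.3%) were higher and 107 (21.1%) lower in RARαS77A cells, and 0 of the 34 members passed the filter. The tests of members therefore come from the same test without a filter, over all 1582 rows, in which 117 rows (7.4%) were higher and 162 (10.2%) lower at a Benjamini-Hochberg adjusted p under 0.05. Of the 34 members, 0 were higher and 3 were lower: miR-127-3p, miR-136-3p and miR-411-5p. The unadjusted p was under 0.05 for 5 members. The count of 3 among 34 is close to the share of all rows that were lower. In each of the 3, the control and RARαS77A libraries overlapped. With DESeq2 on the same rows, where 102 rows (6.45%) were higher and 119 (7.52%) lower, 0 members were called, although 2 had an unadjusted p under 0.05, and 6 members received an adjusted p.

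The calls rested on control replicate 2. Without it, and without a filter, edgeR called 0 members in either direction, and 0 had an unadjusted p under 0.05, while over all rows 6.51% were higher and 8.72% lower. With control replicate 3 as the only control, 0 members were again called and 0 had an unadjusted p under 0.05, against 3.98% of all rows higher and 6.01% lower; the lone control was then assumed to vary like the RARαS77A libraries. Conversely, without control replicate 3 and with the filter, 2 members, miR-127-3p and miR-409-3p, passed the filter and both were lower, where 23.8% of the rows tested were higher and 22.1% lower. Both passed only through control replicates 1 and 2, in which they were high, so their direction was fixed in advance. The library left out was the low control, and no conclusion is drawn from this fit.

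Mean TMM CPM was lower in RARαS77A than in control libraries for 26 of the 34 members (76.5%), compared with 49.0% of all 1582 rows. For 16 of the 34, both groups held at most 3 counts in total and no fold change is given. For the other 18, with a floor of 3 counts per group, the median log2 ratio of RARαS77A to control was -0.78. For the 1055 rows of the whole table above that floor it was 0.17. Of the 18, 12 were at or under the floor in RARαS77A libraries, against 167 of the 1055 rows. These 12 entered only through their control counts, which favours a negative ratio. No conclusion is drawn from this median or from those below, which were selected in the same way. Without control replicate 2, 20 of the 34 members (58.8%) were lower, against 43.9% of all rows, and the median was -1.07 over 11 members and 0.20 over 960 rows. With control replicate 3 as the only control, 9 members (26.5%) were lower and 15 higher, against 37.5% of all rows lower, and the median was 0.06 over 7 members and -0.07 over 912 rows. By these shares of members, the lower level rested on control replicates 1 and 2. Only miR-409-5p had groups that did not overlap, with 1 count in each control and 0 in each RARαS77A library, against 24.9% of all rows. With 0 counts, as many as 3 counts remain possible (0.265 to 0.333 CPM in these libraries), so this difference was not detectable at this depth.

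In the array antisense to RTL1, miR-127-3p, whose pairing with the RTL1 transcript is perfect because it is transcribed from the opposite strand, had 18, 58 and 3 counts in control and 3, 3 and 7 in RARαS77A libraries. Control replicates 1 and 2 were high, and control replicate 3 equalled the lower RARαS77A libraries in counts. Its mean was 1.89 ± 1.87 TMM CPM over the 3 control and 0.527 ± 0.274 over the 3 RARαS77A libraries (± SD). Without a filter, edgeR gave a log2 fold change of -2.0 (SE 0.491) with an adjusted p of 0.000459, DESeq2 gave an adjusted p of 0.0968, and the two-sided exact permutation test, which cannot go below 0.1, gave p = 0.4. Without control replicate 2, the log2 fold change was -0.87 (adjusted p = 0.606, edgeR), and against control replicate 3 alone its sign turned, to 0.75 (adjusted p = 0.849).

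miR-136-3p, from the last precursor of the same array, had 6, 23 and 0 counts in control and 1, 1 and 0 in RARαS77A libraries. Its RARαS77A libraries were near 0, as was control replicate 3. edgeR without a filter gave a log2 fold change of -3.11 (SE 0.942) with an adjusted p of 0.00715. With 29 control and 2 RARαS77A counts in all, the ratio of RARαS77A to control was 0.107, with a 95% exact counting interval of 0.0124 to 0.423. This interval pools the libraries of a group, so it does not measure the spread between replicates. Control replicate 2 held 23 of the 29 control counts. Without it, the fold change was -1.61 on the log2 scale (adjusted p = 0.695, edgeR) and the ratio, of 2 to 6 counts, was 0.318 with an interval of 0.0314 to 1.78. Against control replicate 3, at 0 counts, no fold change is given. DESeq2 gave an adjusted p of 0.158 and the exact permutation test gave p = 0.4. The other arm, miR-136-5p, had 1, 0 and 0 counts in control and 0, 1 and 1 in RARαS77A libraries. The remaining members of the array had totals of 1 to 10 counts over the 6 libraries: miR-493-3p with 10, miR-493-5p with 7, miR-432-5p with 4, miR-431-5p with 2 and miR-433-3p with 1. The whole array had 32, 83 and 10 counts in control and 7, 8 and 10 in RARαS77A libraries.

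miR-370-3p, the single member between the arrays, had 5, 6 and 1 counts in control and 0, 0 and 1 in RARαS77A libraries. The ratio of RARαS77A to control was 0.129, with a 95% exact counting interval of 0.00303 to 0.874, and the adjusted p without a filter was 0.224 (edgeR). Here too the interval pools the libraries and leaves out the spread between them. Without control replicate 2 the ratio was 0.159, and its interval of 0.00345 to 1.31 included 1. Control replicate 3 and RARαS77A replicate 3 held the same count, so the groups overlapped.

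In the second array, miR-411-5p had 7, 80 and 1 counts in control and 5, 2 and 2 in RARαS77A libraries. The 80 counts in control replicate 2 are the highest count of any member in any library, and control replicate 3 was the lowest of the 6. edgeR without a filter gave a log2 fold change of -2.62 (SE 0.515) with an adjusted p of 5.73e-06, DESeq2 gave an adjusted p of 0.0681, and the exact permutation test gave p = 0.7. Without control replicate 2 the log2 fold change was -0.02, and against control replicate 3 alone it was 1.72 (adjusted p = 0.753, edgeR). Its neighbour miR-379-5p, the first miRNA of the array, was high in another library, with 14, 3 and 3 counts in control and 2, 3 and 2 in RARαS77A libraries. The groups overlapped, and the log2 fold change of -1.06 (SE 0.797) had an adjusted p of 0.489 (edgeR).

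These neighbours, a pair picked after their values were seen, had unlike shares of the cluster in control replicates 1 and 2. miR-411-5p took 6.67% of the member counts in control replicate 1 (95% Wilson interval 3.27 to 13.1) and 32.4% in control replicate 2 (26.9 to 38.5). miR-379-5p took 13.3% (8.11 to 21.1) and 1.21% (0.414 to 3.51). These intervals cover counting error in 1 library each, and the spread between replicates was not measured by them. The share of miR-127-3p, at 17.1% (11.1 to 25.5) and 23.5% (18.6 to 29.1), had overlapping intervals.

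miR-758-3p, from the same part of the array, had 11 counts in control replicate 2 and 0 in each of the other 5 libraries. In each of these, the 0 leaves up to 3 counts possible. Its adjusted p was 0.0855 without a filter (edgeR). Within the same stretch, miR-323a-3p had 8 counts in control replicate 2 and 1 count in the rest, and miR-299-5p and miR-329-3p were counted only in control replicate 2, with 3 and 2 counts.

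miR-409-3p, near the end of the array within MEG9, had 18, 19 and 0 counts in control and 4, 3 and 2 in RARαS77A libraries. Control replicates 1 and 2 were alike and high, and control replicate 3 was below every RARαS77A library. The log2 fold change was -1.49 (SE 0.654) with an adjusted p of 0.110 (edgeR without a filter) and 0.404 (DESeq2), and the exact permutation test gave p = 0.4. Since 0 counts leave up to 3 possible, no fold change is given against control replicate 3 alone.

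miR-381-3p, the first miRNA within MIR381HG, had 3, 6 and 9 counts in control and 3, 9 and 4 in RARαS77A libraries, with no separation between the groups. Its log2 fold change was 0.23 (SE 0.674) with an adjusted p of 0.872 (edgeR without a filter). Its counts in control replicates 1 and 2 lay within the range of the other libraries, and it was the most counted member in control replicate 3 and in RARαS77A replicate 2, with 9 counts in each.

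The second array as a whole had 68, 158 and 17 counts in control and 23, 20 and 14 in RARαS77A libraries, which was 64.8%, 64.0% and 60.7% of the member counts in control and 76.7%, 71.4% and 56.0% in RARαS77A libraries. On TMM CPM, its mean was 5.92 ± 4.61 in control and 2.33 ± 0.622 in RARαS77A cells, and that of the first array 3.04 ± 2.40 and 1.02 ± 0.166 (± SD, n = 3 each). Both arrays overlapped between the groups, and both were highest in control replicate 2.

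**Figure D2:**
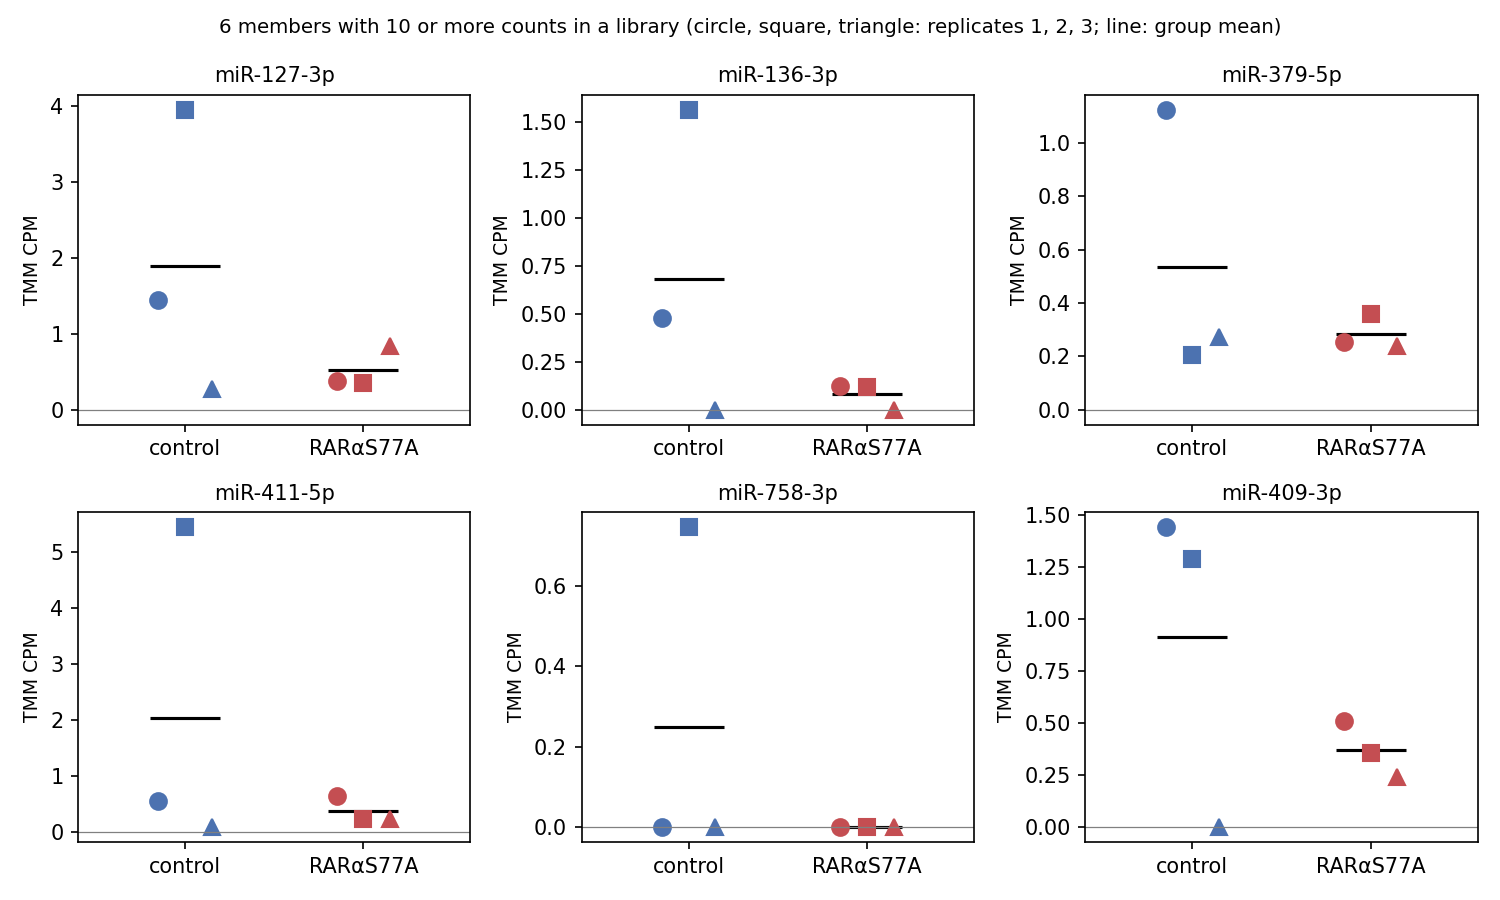
TMM CPM of the 6 members with at least 10 counts in any library, by group, on axes of different range; circles, squares and triangles are replicates 1, 2 and 3, and black lines are group means. Control replicate 2 (square) is the highest point for miR-127-3p, miR-136-3p, miR-411-5p and miR-758-3p, and control replicate 1 (circle) for miR-379-5p and miR-409-3p, while control replicate 3 (triangle) lies at or near the RARαS77A points.

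The other 28 members with a row stayed under 10 counts in every library, with totals of 1 to 34 counts over the 6 libraries and a median of 3. Among them, miR-654-3p had 4, 3 and 0 counts in control and 2, 2 and 1 in RARαS77A libraries, and miR-134-5p, known from the dendrites of neurons, had 5, 0 and 0 against 1, 1 and 1. Both arms were on the list and had a row for 6 precursors, and the 3p arm had more counts in 5 of them. Examples are miR-409, with 46 counts of the 3p and 3 of the 5p arm over the 6 libraries, miR-136, with 31 and 3, and miR-654, with 12 and 1. In miR-369 the 5p arm had 3 counts and the 3p arm 1. Precursors with an arm off the list were not in this comparison. Among them, the 5p arm had more counts in some, such as miR-411 and miR-379, and the 3p arm in others, such as miR-127.

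No row was found for 12 members, namely miR-154-5p, miR-299-3p, miR-337-3p, miR-376b-3p, miR-376c-3p, miR-377-3p, miR-380-3p, miR-496, miR-539-5p, miR-655-3p, miR-656-3p and miR-665. Each row of the table has at least 1 count over the 6 libraries. Of the 2370 mature miRNA names in RefSeq, 1342 (56.6%) have a row, compared with 73.9% of the 46 members.

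The other arms and miRNAs of the same arrays that the list leaves out were rarer still. Of 46 such names 9 had a row, with 1, 19 and 1 counts in control and 1, 1 and 2 in RARαS77A libraries, and none passed the low-count filter. The highest was miR-411-3p, with 6 counts in control replicate 2. Of these 9, 8 were counted in control replicate 2, against 1 or 2 in each other library, so the other arms were also high in that library.

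Of 8 miRNAs of neighbouring precursors on 14q32 that do not belong to the imprinted arrays, 4 passed the filter and 1 of the 4 was higher in RARαS77A cells, against 23.3% of all miRNAs tested. miR-342-3p, encoded in an intron of EVL, had 63, 65 and 47 counts in control and 63, 68 and 74 in RARαS77A libraries. On TMM CPM this was 4.59 ± 0.407 and 8.34 ± 0.494 (± SD, n = 3 each), and the log2 fold change was 0.86 (SE 0.165) with an adjusted p of 0.00454 (edgeR with the filter). miR-345-5p had 1205, 1678 and 1189 counts in control and 1129, 1144 and 1028 in RARαS77A libraries, at 106 ± 8.91 and 135 ± 10.03 TMM CPM (± SD, n = 3 each), with an adjusted p of 0.0554 (edgeR). On TMM CPM, the 3 control libraries lay below the 3 RARαS77A libraries for both. On CPM by total counts this held for miR-342-3p, at 5.21 to 5.83 against 6.50 to 7.39, whereas miR-345-5p turned, with 112, 148 and 132 CPM in control and 116, 111 and 103 in RARαS77A libraries. miR-203a-3p and miR-203b-5p, whose precursors lie on opposite strands, had identical counts of 605, 10 and 78 in control and 32, 29 and 32 in RARαS77A libraries, and cannot be told apart here.

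The muscle, stromal and endocrine markers were each high in control replicate 1 or in control replicate 2, but not in both. The muscle list, 4 of 5 of which had a row (all but miR-208b-3p), summed to 989 counts in control replicate 1 and to 30 to 49 in the other 5 libraries, and the stromal list (miR-143-3p, miR-145-5p, miR-199a and miR-214-3p) to 3797 against 577 to 961. The stromal sum in control replicate 1 was carried by miR-143-3p, with 3511 counts against at most 638 elsewhere. miR-199a-3p, at 11.6 TMM CPM there against 7.21 to 18.4 elsewhere, and miR-199a-5p, at 6.74 against 4.55 to 9.54, were not raised in it. In control replicate 2, the endocrine miRNA miR-375-3p had 870 counts, against 19 to 54 elsewhere, and the liver miRNA miR-122-5p had 99 counts against 355 to 527. The muscle and stromal lists, at 30 and 657 counts there, were not raised. The pluripotent stem cell list was at 0 except for miR-302d-3p with 2 counts in control replicate 1 and miR-302b-3p with 1 in control replicate 2. It was present with all 9 of its members in the other 4 libraries, in which the DLK1-DIO3 miRNAs were low.

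The blood list ranged from 300 to 492 counts in control and from 235 to 316 in RARαS77A libraries. Of its 7 miRNAs, 4 passed the filter (miR-451a, miR-486-5p, miR-142-5p and miR-142-3p) and were counted in every library. In both directions 0 of these were called, against 23.3% of all tested higher and 21.1% lower. The rarer miR-144-3p and miR-223-3p, with at most 3 and 13 counts, were at 0 in control replicate 3 and in each RARαS77A library. The neural list, of which 5 of 6 had a row, 4 were tested and 2 of these were higher in RARαS77A cells (23.3% of all tested were), ranged from 6898 to 11055 and from 10079 to 13511 counts, and its defining marker miR-124-3p had no row. The placental cluster on chromosome 19, which is also imprinted, had 16, 13 and 21 counts in control and 23, 27 and 18 in RARαS77A libraries. It was thus rare in every library and, unlike the chromosome 14 members, was not high in control replicates 1 and 2. Of its counts in these 2 libraries, 15 and 10 were of miR-519a-3p. Of its 11 miRNAs, 2, 4 and 5 were counted in control and 8, 7 and 7 in RARαS77A libraries. In these bulk libraries, fewer cells of a type and less RNA per cell cannot be told apart, and the part of these other markers in the level of the DLK1-DIO3 miRNAs was not tested.

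**Figure D3:**
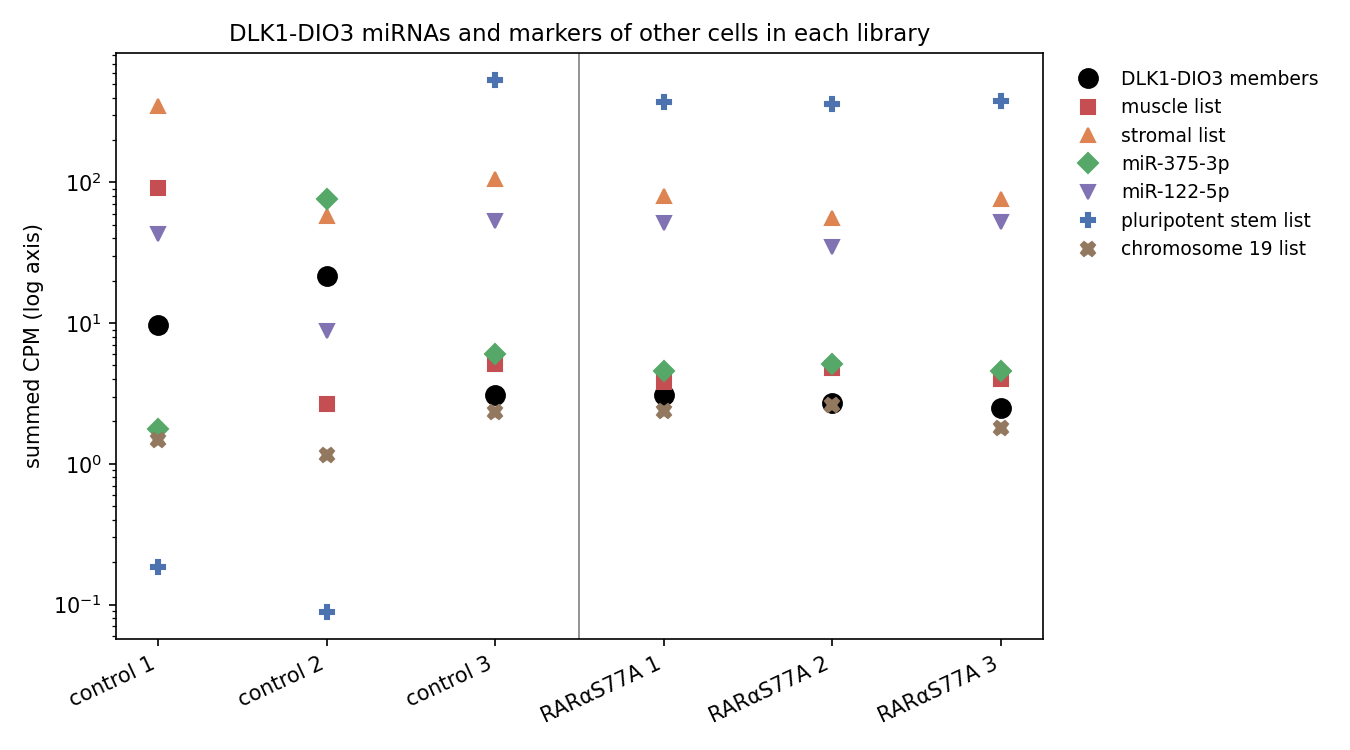
Summed CPM (log axis) of the DLK1-DIO3 members (black circles) and of marker lists of other cells in each library (horizontal axis). The members are high in control replicate 1, beside the muscle and stromal lists, and in control replicate 2, beside miR-375-3p. The stromal sum in control replicate 1 is carried by miR-143-3p. In the 4 libraries with the pluripotent stem list, the members are between 2.50 and 3.10.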

How the data were processed

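Small RNA libraries of 3 control and 3 RARαS77A samples of MDA-MB-231 cells were compared as labelled. The authors deposited read counts per miRNA and library, as whole numbers without normalization, and the same values as TPM, in 1 table. Bowtie is named in the submitters' processing notes without a version or role. The sources used here do not give the reference, filters on reads, or how strand and multiply matching reads were treated. Counts were summed over the listed miRNAs and tested per miRNA over the whole table with edgeR 4.0.16 (R 4.3.3; TMM, filterByExpr with a minimum count of 10, glmQLFit and glmQLFTest, Benjamini-Hochberg adjusted p under 0.05, no block). The deposited TPM entered only the alternative with limma 3.58.1 (log2 of TPM plus 1 or 10). DESeq2 1.42.0, other scalings, a minimum count of 50, a replicate block and leaving out libraries were further alternatives. The scripts were tested on simulated data. Wilson intervals (95%, scipy 1.17.1), the exact counting intervals of pooled counts and the limit of 3 counts for a count of 0 cover counting error only.

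The members and lists were chosen with earlier results of these data known. All 46 members are accounted for; those passing the filter or with at least 10 counts in any library are given per library, and the rest by number and range, with some named after their values were seen. Rows whose counts differed by at most 5% in every library, with a mean of at least 10, were called near-identical. Positions are from GENCODE 29 and mature sequences from RefSeq.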

Additional observations from a re-analysis of the deposited data

How the results depend on the processing

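With the low-count filter, 0 members were tested and 0 called under each scaling, DESeq2, limma on TPM, the stricter filter, the replicate block and control replicate 3 as the only control. Leaving out 1 library in turn gave 0 to 2 members tested and 0 to 2 called lower, the 2 without control replicate 3. These 2 passed the filter only through control replicates 1 and 2. Without a filter, 34 members were tested and 3 called lower, also with the replicate block. The numbers do not pair the libraries (correlations of deviations 0.0386, 0.0996 and 0.0247 for replicates 1, 2 and 3 over 506 miRNAs), so the block says nothing of the size of an effect. Without a filter, 5 were called lower with total counts only, 0 with DESeq2, 0 with control replicate 3 as the only control, and 0 to 5 when 1 library was left out, with 34 tested in each; the 0 was without control replicate 2. These fits without a filter, other than that with TMM and all libraries, were added after seeing the data. No member was called higher in any of the fits run.

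The log2 fold change of the summed level was -1.45, with a range of -1.95 to -0.69 when 1 library was left out. It was -1.48 with DESeq2 size factors, -2.06 with total counts, -1.24 with upper quartile scaling, -1.71 with total counts without the 5 most abundant miRNAs, -1.37 without miR-127-3p and -1.46 with the other arms. Only control replicate 3 as the only control turned its sign, to 0.44. Over all 506 miRNAs tested, the median log2 fold change was 0.06 with TMM and -0.51 with total counts. The difference in members detected, -6.33 as a mean, was -9.5 to -4.5 when 1 library was left out, -6.67 at 3 counts, -2.67 at 10 counts, -6.24 at equal total counts and -3.58 at equal totals times TMM factors, the last added after seeing the data. With at most 80 counts per member and library, depth limits each of these comparisons.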
